A study of Saccharomyces cerevisiae S288C with 12 samples.

Results

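Peak summits of Cse4 that lay between convergent genes, where the coding regions on both sides end toward each other, numbered 1376 among the 25569 peaks of 6 immunoprecipitated libraries. A summit was counted when it lay outside every annotated nuclear gene, over 20 kb from a chromosome end, with a gene read rightward on its left and a gene read leftward on its right. A further 97 summits met the same conditions within 20 kb of an end. The nearest summit kept was 20.05 kb from an end with a fold of 1.28, and the nearest one not kept was 18.8 kb from an end with a fold of 1.31. Cse4 is the histone H3 variant of budding yeast centromeres, the counterpart of CENP-A. The measurement was chromatin immunoprecipitation with sequencing, and each library came as the authors' own list of called peaks.

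The 3 strains carried galactose-driven CSE4 with a 6His-3HA tag in which lysines 215 and 216 were replaced by alanine (K215/216A), replaced by arginine (K215/216R), or left as they are (wild type). Every strain, wild type included, was psh1Δ, so that the 3 strains shared the loss of Psh1 and the overproduction of tagged Cse4. Cells grew at 30 °C in 2% raffinose, received 2% galactose for 2 h, and their DNA was sonicated to about 100 bp before capture on anti-HA beads. Each strain had 2 immunoprecipitated libraries, and the labels do not say that these were separate cultures, so the spread between them may be technical. Tagged Cse4 was made from the GAL promoter and not from its own, and only in psh1Δ cells, which limits what the strains stand for.

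Psh1 is the ubiquitin ligase that marks excess Cse4 for destruction, and in its absence Cse4 is known to build up outside centromeres. Much of that excess is known to settle near gene promoters. The stretch between convergent genes holds no promoter of its flanking coding genes and instead holds a pair of facing terminators, where transcription of both genes stops and where cohesin, the ring that holds sister chromatids together, is known to collect. These stretches were therefore set beside stretches between divergent genes, which face away from each other and share a region of promoters, and stretches between tandem genes, which hold 1 gene start and 1 gene end.

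The peak lists held 4575 and 4725 peaks in K215/216A, 3604 and 4822 in K215/216R, and 3123 and 4720 in wild type. The library-wide background, in fragments piled up at a base, was 146 and 148 in K215/216A, 86.2 and 156 in K215/216R, and 59.5 and 126 in wild type. Wild type replicate 1 and K215/216R replicate 1 had the lowest backgrounds and the shortest lists. Counts were also taken with lists shortened to equal length and with pileups scaled to the lowest library-wide background. Beyond that, the part of depth in the counts of peaks below was not tested.

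Convergent summits numbered 224 and 272 in K215/216A, 214 and 273 in K215/216R, and 148 and 245 in wild type. They made up 5.04% and 5.97% of the summits over 20 kb from the ends in K215/216A, 6.16% and 5.87% in K215/216R, and 4.95% and 5.40% in wild type. The 95% Wilson intervals ran from 4.44% to 5.73% and from 5.32% to 6.70% in K215/216A, from 5.41% to 7.01% and from 5.23% to 6.58% in K215/216R, and from 4.23% to 5.79% and from 4.78% to 6.10% in wild type. These intervals cover counting error only and overlap across the 3 strains.

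The share averaged 5.51% ± 0.66 in K215/216A, 6.01% ± 0.21 in K215/216R and 5.18% ± 0.32 in wild type (SD, n = 2 each). The share of K215/216A minus that of wild type was 0.33 percentage points (p = 0.667, two-sided exact permutation test), and without K215/216A replicate 2 the difference was −0.14. K215/216R minus wild type gave 0.84 percentage points (p = 0.333, exact permutation test), with both of its libraries above both wild type libraries. The difference of K215/216A minus K215/216R was −0.51 percentage points (exact permutation p = 0.667), −0.042 when K215/216A replicate 1 was left out and −0.97 when replicate 2 was. Without wild type replicate 1, K215/216A minus wild type was 0.10 percentage points. With 2 libraries against 2 the smallest p such a test can give is 0.333, so none of these comparisons could pass 0.05.

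The genome over 20 kb from the ends held 1553 stretches between convergent genes, short ones with a median length of 213 bases and quartiles of 137 and 322 bases, together 3.72% of the span. The median was 496 bases between divergent genes and 385 bases between tandem genes. A convergent stretch with at least 1 summit was found 213 and 263 times in K215/216A, 204 and 262 times in K215/216R, and 144 and 236 times in wild type. The means were 238 ± 35.4 in K215/216A, 233 ± 41.0 in K215/216R and 190 ± 65.1 in wild type (SD, n = 2 each). K215/216A minus wild type was 48 stretches, K215/216R minus wild type 43 and K215/216A minus K215/216R 5, each with a two-sided exact permutation p of 0.667. Without wild type replicate 1, the shallowest library, K215/216A minus wild type was 2 and K215/216R minus wild type −3. With lists shortened to equal length these differences were 14.5 and 21.5, and with pileups scaled to the lowest library-wide background 20 and 25.

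Per kilobase, with all called peaks and stretches of every length, stretches between convergent genes held about as many summits as those between divergent genes. They held more than genes themselves. The density was 0.539 ± 0.109 summits per kb between convergent genes, 0.564 ± 0.119 between divergent genes, 0.614 ± 0.105 between tandem genes and 0.284 ± 0.0485 inside genes (SD, n = 6 libraries). Convergent over divergent was 0.957-fold, log2 −0.06, lower in 4 of 6 libraries (two-sided exact sign-flip permutation p = 0.438). Limited to peaks with a −log10 q of at least 10 it was log2 −0.28 (exact permutation p = 0.094). Limited to stretches of at least 200 bases it was log2 −0.25 (exact permutation p = 0.031). Convergent over tandem was 0.873-fold, log2 −0.20, lower in 6 of 6 libraries (exact permutation p = 0.031). Convergent over genes was 1.89-fold, log2 0.92, higher in 6 of 6 libraries (exact permutation p = 0.031). The smallest p that 6 libraries allow is 0.031, and the 6 libraries span 3 strains rather than 6 replicates of one. All 6 were scored over the same stretches and genes, so a p over libraries does not measure the variation among stretches.

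The convergent summits ranked lower than those of the other stretches between genes and higher than those inside genes. A summit's rank was its percentile within its own library by the authors' fold, the ratio of piled-up fragments at the summit to the background estimated around it. The median percentile was 52.0 ± 2.89 between convergent genes, 60.2 ± 1.40 between divergent genes, 59.5 ± 1.87 between tandem genes and 44.6 ± 0.894 inside genes (SD, n = 6 libraries). Convergent minus divergent was −8.13 percentile points, convergent minus tandem −7.46 and convergent minus genes 7.41, each in the same direction in 6 of 6 libraries with an exact permutation p of 0.031. Limited to peaks with a −log10 q of at least 10, the 3 differences were −2.34, −2.04 and 6.59 points and none passed. With every list shortened to 3123 peaks, convergent minus divergent was −6.49 points and convergent minus genes 6.97, and neither passed. When only the best summit of each stretch or gene was kept, convergent minus genes was 3.18 points and did not pass.

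The peaks themselves were also shorter than other peaks between genes. The median peak length was 254 ± 20.1 bases between convergent genes, 282 ± 15.9 between divergent genes, 289 ± 12.9 between tandem genes and 259 ± 12.5 inside genes (SD, n = 6 libraries). Convergent minus divergent was −27.7 bases and convergent minus tandem −34.8 bases, in 6 of 6 libraries each (exact permutation p = 0.031), while convergent minus genes was −5 bases, shorter in 5 of 6 libraries (exact permutation p = 0.438). Among peaks with −log10 q of 10 or more, convergent minus divergent was −53.8 bases and did not pass, and at equal list lengths convergent minus genes was −10.7 bases and passed. Between 29.0% and 37.4% of the convergent peaks of a library lay wholly within their stretch, and between 15.6% and 23.2% ran into the coding regions on both sides.

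**Figure D1:**
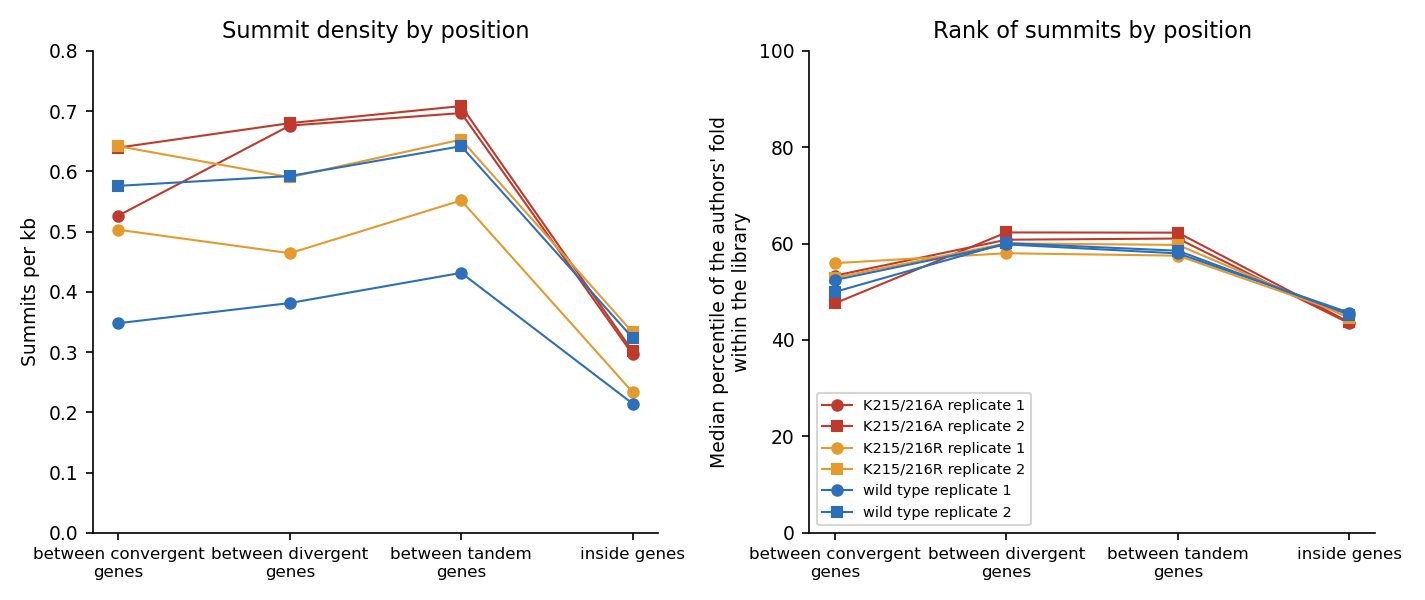
Summits per kb (left) and median percentile of the authors' fold within the library (right) for summits between convergent, divergent and tandem genes and inside genes, with 1 line per library. Convergent density averaged 0.539 summits per kb against 0.284 inside genes, and the convergent median percentile, 52.0, lay below those of divergent and tandem stretches, 60.2 and 59.5.

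The comparison with divergent stretches was also made by strain. The log2 ratio of convergent over divergent density was −0.36 and −0.09 in K215/216A, 0.12 and 0.12 in K215/216R, and −0.13 and −0.04 in wild type. Both K215/216R libraries were above 0, and the other 4 libraries were below it. The means were −0.22 ± 0.19 in K215/216A, 0.12 ± 0.003 in K215/216R and −0.09 ± 0.07 in wild type (SD, n = 2 each). K215/216A minus K215/216R was −0.34 (exact permutation p = 0.333, the smallest possible), and without K215/216A replicate 1 it was −0.21. K215/216R minus wild type was 0.20 (exact permutation p = 0.333). K215/216A minus wild type was −0.14 (exact permutation p = 0.667), −0.0025 when K215/216A replicate 1 was left out, −0.27 when its replicate 2 was, and −0.09 when wild type replicate 2 was. Counting only stretches of at least 200 bases, all 6 libraries were below 0, with −0.46 and −0.30 in K215/216A, −0.05 and −0.08 in K215/216R, and −0.41 and −0.22 in wild type.

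Stretches of 300 bases or more held a summit more often than shorter ones in all 3 orientations, and in each length class from 300 bases up the convergent share was the lowest of the 3. Of convergent stretches of 200 to 299 bases, 10.6% held a summit in the average library, against 10.3% of divergent and 16.9% of tandem stretches of that length. At 500 to 999 bases the shares were 30.4% of convergent, 38.4% of divergent and 38.0% of tandem stretches, and at 1000 bases or more they were 62.6%, 66.8% and 68.6% in the same order. Below 100 bases the order was turned, with 8.29% of convergent, 5.77% of divergent and 1.91% of tandem stretches. Counting only stretches of at least 200 bases, convergent over divergent density was log2 −0.25, lower in 6 of 6 libraries (exact permutation p = 0.031).

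**Figure D2:**
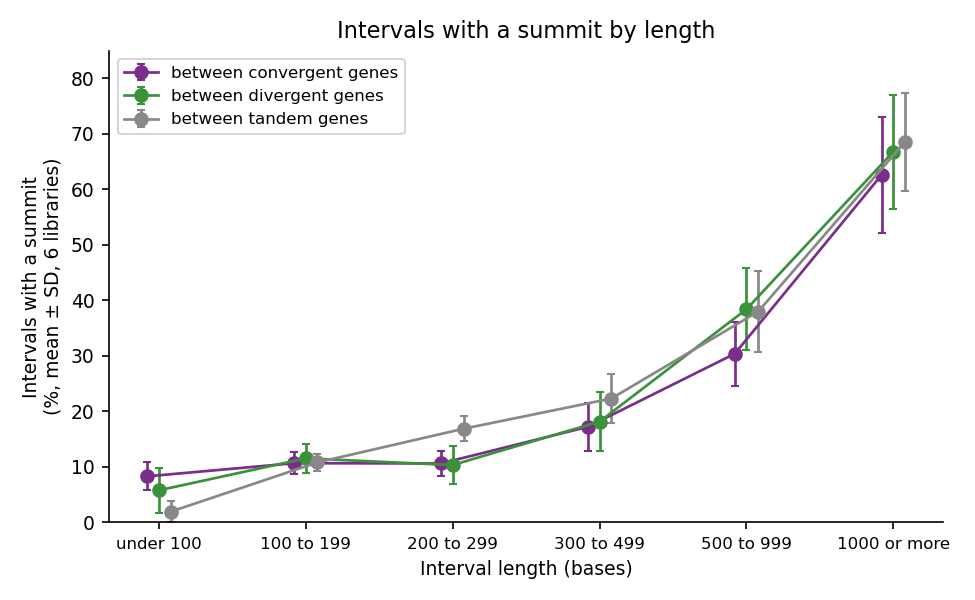
Percentage of stretches that held a summit against stretch length in bases, as mean ± SD over 6 libraries, for convergent, divergent and tandem orientation. The share was 8.29% of convergent stretches under 100 bases and 62.6% of those of 1000 bases or more.

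Most stretches between convergent genes held no summit in any library. That was the case for 1131 of the 1553, or 72.8%, and 422 held a summit in at least 1 library. Of these, 122 did so in 1 library, 69 in 2, 58 in 3, 47 in 4, 56 in 5 and 70 in all 6. The 70 stretches were 4.51% of the convergent ones, below the 10.3% of all 6019 stretches between genes, 13.6% of the divergent and 11.5% of the tandem ones. Their median length was 350 bases, against 201 bases for convergent stretches without a summit.

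Within the 70 recurrent stretches, the same base was picked again and again. The distance between the summits of 2 libraries had a median of 1 base, both within a strain and between strains, and the whole range over 6 libraries had a median of 8 bases. It was no more than 50 bases in 62.9% of the stretches. The sets of stretches with a summit were not always closest within a strain. As shared stretches over those in either library, both K215/216A libraries gave 0.545 and both K215/216R libraries 0.538. These were the closest matches of replicate 1 of those strains, while every other library was closest to a same-numbered one of another strain. The value was 0.591 between K215/216A replicate 2 and K215/216R replicate 2, and 0.556 between K215/216R replicate 2 and wild type replicate 2. Wild type replicate 1 gave 0.420 with K215/216R replicate 1 and 0.413 with wild type replicate 2. K215/216A replicate 2 and K215/216R replicate 2, the libraries with the most convergent stretches, shared 195, which was 74.1% of the K215/216A set and 74.4% of the K215/216R set. Both K215/216A libraries shared 168, both K215/216R libraries 163, and both wild type libraries 111, the last being 77.1% of the set of wild type replicate 1 and 47.0% of that of wild type replicate 2.

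Convergent summits were spread over their short stretches. The median distance to the nearer coding end was 74 and 72.5 bases in K215/216A, 66 and 74 bases in K215/216R, and 54 and 66 bases in wild type, and between 37.5% and 45.3% of a library's convergent summits were within 50 bases of it. On a scale that is 0 at a coding end and 1 at the middle of the stretch, the median position was between 0.527 and 0.552, where even placement gives 0.5. Since the stretches are short, the density over the bases at each distance was also taken. It was 0.612 ± 0.0993 summits per kb in the first 50 bases past a convergent coding end, 0.448 ± 0.109 in the next 50, and 0.851 ± 0.232 at 300 to 499 bases, a distance that only 23.1 kb of the longest stretches reach (SD, n = 6 libraries). In the first 50 bases the density was 0.893 at the coding ends of tandem stretches, 0.791 at their coding starts and 0.683 at the coding starts of divergent ones. The gene bounds used run from start to stop codon, so the untranslated parts of the transcripts fall inside these stretches.

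Density was higher toward the centromere in all 4 classes, and most so between convergent genes when all called peaks were counted. Among convergent stretches it was 1.12 ± 0.22 summits per kb under 5 kb from the middle of the centromere stretch, 0.967 ± 0.21 at 5 to 20 kb, 0.776 ± 0.23 at 20 to 50 kb, 0.564 ± 0.0862 at 50 to 100 kb and 0.453 ± 0.0918 beyond 100 kb (SD, n = 6 libraries). Within 20 kb the density was 2.29 ± 0.18 times that beyond 100 kb, and between 2.13 and 2.54 times in every library. The same ratio was 1.45 ± 0.11 for divergent stretches, 1.58 ± 0.14 for tandem stretches and 1.76 ± 0.13 for genes (SD, n = 6 libraries). Convergent over divergent this ratio was 1.57-fold, over tandem 1.45-fold and over genes 1.302-fold, each higher in 6 of 6 libraries (two-sided exact permutation p = 0.031), a comparison added after the values were seen. Among peaks with −log10 q of 10 or more the log2 of these values was 0.37, 0.019 and 0.0053, and none passed. Without the stretches that hold the centromere the convergent ratio was 2.254 ± 0.19 and the log2 values were 0.62, 0.56 and 0.36, all of which passed. Far from the centromere the convergent stretches were below divergent and tandem ones, at 0.453 against 0.537 and 0.564 summits per kb, while under 5 kb they were above both, at 1.12 against 0.813 and 0.917.

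The convergent stretches near the centromere are few and somewhat longer. There were 29 under 5 kb, with a median length of 311 bases, and they include the stretches that hold the centromere itself. Of the 29, 13 and 13 held a summit in K215/216A, 11 and 13 in K215/216R, and 9 and 13 in wild type. Beyond 100 kb there were 1109, with a median length of 210 bases, of which 131 and 160 held one in K215/216A, 122 and 157 in K215/216R, and 87 and 147 in wild type. The part of stretch length in the gradient was not tested separately.

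**Figure D3:**
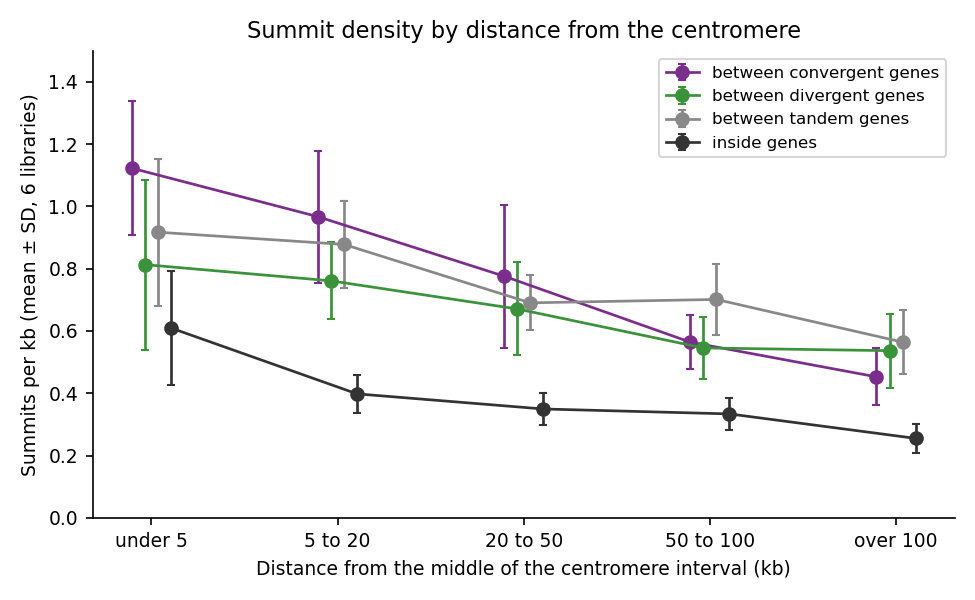
Summits per kb against distance from the middle of the stretch that holds the centromere, as mean ± SD over 6 libraries, for the 3 orientations and for genes. The convergent line is the highest under 5 kb, at 1.12 summits per kb, and drops below divergent and tandem stretches beyond 100 kb, at 0.453.

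The centromere lay between convergent genes on 5 of the 16 chromosomes. By mean percentile among the 70 recurrent stretches, that of chromosome IV ranked 4, that of XIV 11 and that of XIII 29. The stretch of chromosome XII held a summit in 5 libraries and that of chromosome IX in 1. On chromosome IV, between RMD1 and NTH1, the neutral trehalase gene (449277 to 450219; these and later coordinates are of the sacCer3 build), the authors' fold was 4.44 and 3.78 in K215/216A, 3.25 and 2.92 in K215/216R, and 1.94 and 2.78 in wild type. All 6 summits fell on base 449534. Among the 70 recurrent stretches it ranked 1 and 1 in K215/216A, 3 and 4 in K215/216R, and 23 and 2 in wild type.

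On chromosome XIV, between DOM34, a ribosome rescue factor, and CIT1, the mitochondrial citrate synthase (628617 to 629621), the fold was 2.85 and 2.45 in K215/216A, 2.33 and 2.60 in K215/216R, and 1.68 and 2.40 in wild type. Between YPT7, a vacuolar Rab GTPase, and CDC5, the polo kinase, on chromosome XIII (267801 to 269018) it was 2.52 and 2.39 in K215/216A, 1.76 and 2.09 in K215/216R, and 1.31 and 1.63 in wild type. There both K215/216A values were above the other 4. Between DNM1, a dynamin of mitochondrial fission, and YLR001C on chromosome XII (150164 to 151388) it was 2.39 and 2.40 in K215/216A, 1.69 and 1.76 in K215/216R, and 1.70 in wild type replicate 2, with no summit in replicate 1. The fold depends on each library's own background, and no test was made between strains.

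On chromosome IX, between YIL001W and SGN1, only K215/216A replicate 1 had a summit inside the stretch, with a fold of 1.45. The stronger peak there had its summit inside YIL001W in the K215/216A, K215/216R and second wild type libraries, and so is not among the convergent summits.

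At these 5 stretches a library had 1 peak, 2 peaks with a gap between them, or no peak. Wild type replicate 1 had no peak at the stretches of chromosomes XII and IX. On chromosome IV a single peak of 1744 and 1651 bases covered the stretch in the K215/216A libraries, while 2 peaks were called with a gap of 200 and 199 bases in K215/216R and of 379 and 284 bases in wild type. On chromosome XIV the gap was 234 and 241 bases in K215/216A, 267 and 265 bases in K215/216R, and 356 bases in wild type replicate 2, with a single peak called in replicate 1. At these 2 centromeres the gaps were widest in wild type. The library-wide background was 146 and 148 in K215/216A and 59.5 and 126 in wild type, and its part in the gaps was not tested. On chromosome XII they were 474 and 510 bases in K215/216A, 675 and 646 bases in K215/216R, and 670 bases in wild type replicate 2. On chromosome XIII they were 252 and 502 bases in K215/216A, 776 and 510 bases in K215/216R, and 689 bases in wild type replicate 2, with a single peak in replicate 1, so that a K215/216R library had the widest gap there. On chromosome IX they were 531 and 528 bases in K215/216A, and a single peak was called in both K215/216R libraries and in wild type replicate 2.

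Outside the centromeres, the best-ranked stretch in the mean over libraries was that between CYC1, cytochrome c of the respiratory chain, and UTR1, an NAD kinase, on chromosome X (526665 to 526883). The fold was 3.05 and 3.36 in K215/216A, 4.48 and 3.68 in K215/216R, and 4.06 and 3.71 in wild type. The summit lay on base 526828 or 526829 in every library, and the peak of 215 to 234 bases began 31 to 39 bases into the stretch and ended 35 to 46 bases past it, within UTR1. The local background there was 11.0 and 9.70 times the library-wide one in K215/216A, 7.43 and 7.88 times in K215/216R, and 7.20 and 7.68 times in wild type, whereas its median over the 70 stretches was 1.33 to 1.44 times. The CYC1 terminator is a standard part of yeast expression cassettes, and whether extra copies in these strains bear on the peak was not tested.

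The next stretch by rank was MTC2/YKL097C on chromosome XI (257844 to 258502), with a fold of 3.12 and 3.05 in K215/216A, 3.62 and 3.33 in K215/216R, and 2.98 and 2.61 in wild type. It was followed by AHP1/CCW12 on chromosome XII (369312 to 369696), between a thiol peroxidase and a cell wall mannoprotein gene, with 2.64 and 2.72 in K215/216A, 2.57 and 2.99 in K215/216R, and 2.24 and 2.19 in wild type. All 6 of its summits were 8 or 9 bases past AHP1, on base 369319 or 369320. TIM13/QCR9 on chromosome VII (858605 to 859062), between a mitochondrial import chaperone and a subunit of respiratory complex III, had 2.254 and 2.28 in K215/216A, 2.39 and 2.12 in K215/216R, and 2.16 and 2.19 in wild type. At MTC2/YKL097C both K215/216R values were the highest and both wild type values the lowest, at AHP1/CCW12 both wild type values were below the 4 mutant ones, and at TIM13/QCR9 the K215/216R values spanned the others.

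The next of the best 10 by rank, RDN5-1/ETS2-2, between the 5S ribosomal RNA and the end of the 35S precursor on chromosome XII (459797 to 460711), had 2.00 and 1.96 in K215/216A, 2.84 and 2.09 in K215/216R, and 2.79 and 1.92 in wild type. This ribosomal DNA repeat is collapsed in the assembly, its local background was 50.7 to 63.5 times the library-wide one, and its peak reached 8901 bases in K215/216R replicate 1. SCR1, the RNA of the signal recognition particle, faced a tRNA gene on chromosome V (442509 to 443201) with 1.86 and 1.86 in K215/216A, 2.61 and 2.05 in K215/216R, and 2.70 and 2.05 in wild type. ALB1/RPE1 on chromosome X (190244 to 190373), between a ribosome assembly factor and an enzyme of the pentose phosphate pathway, had 1.71 and 1.85 in K215/216A, 2.78 and 2.33 in K215/216R, and 2.32 and 2.44 in wild type. There the K215/216A values were below the other 4. DON1/YDR274C and HSP12/IES1, the first next to a sporulation gene and the second to a stress-induced membrane protein gene, had folds between 1.93 and 3.01 in all libraries.

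**Figure D4:**
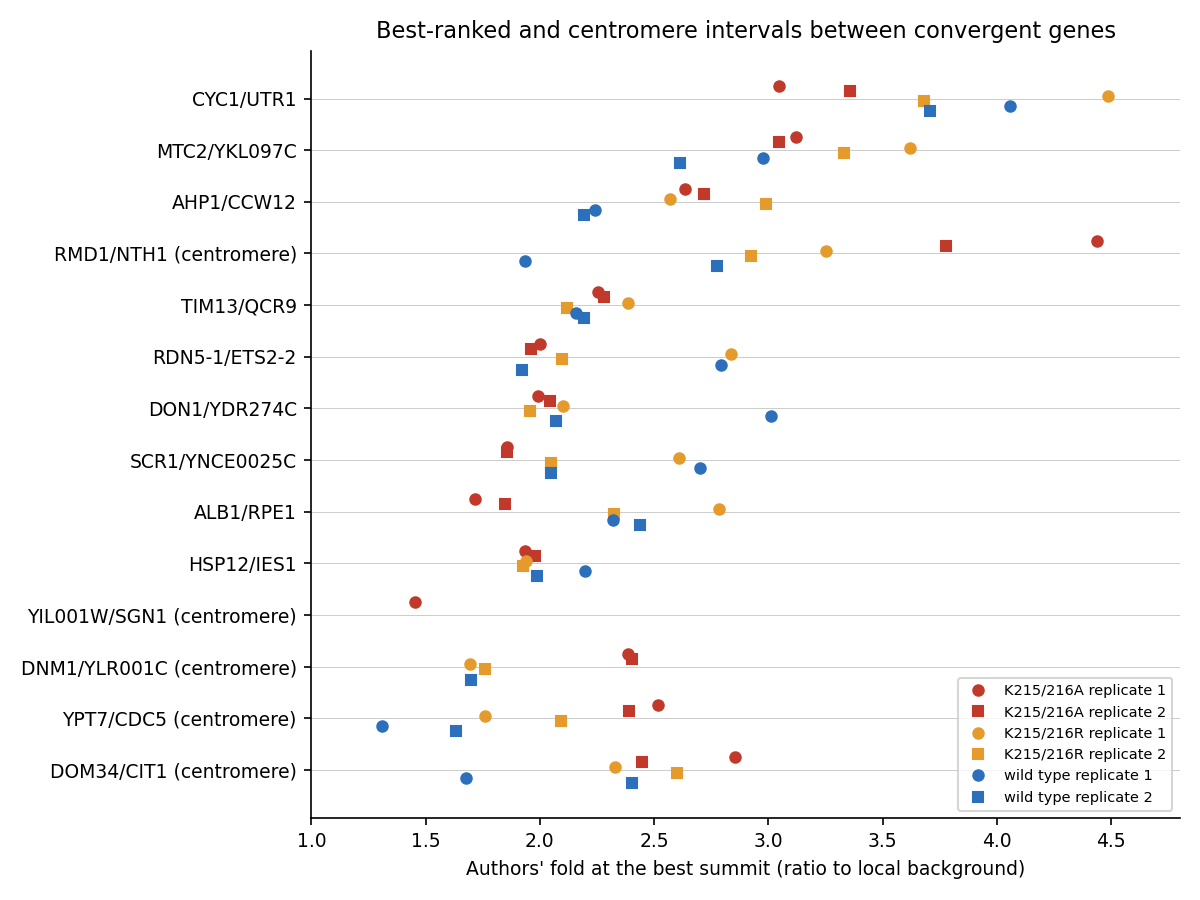
The authors' fold at the best summit, a ratio to local background, for the 10 best-ranked recurrent convergent stretches and the convergent centromere stretches, with 1 point per library. At RMD1/NTH1 the K215/216A libraries stand highest, at 4.44 and 3.78, and at CYC1/UTR1 K215/216R replicate 1 stands highest, at 4.48.

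Over the 70 recurrent stretches the order of the fold values was partly shared between libraries. Spearman's rho was 0.68 between the K215/216A libraries, 0.70 between the K215/216R libraries and 0.74 between the wild type libraries, and it ran from 0.44 to 0.79 between libraries of different strains. These are correlations across stretches within libraries, given as a description, and the stretches share local sequence and the same background model.

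Stretches with a summit in both libraries of a strain numbered 168 in K215/216A, or 10.8% of convergent stretches, against 21.9% of all stretches between genes. They numbered 163 in K215/216R, or 10.5% against 17.9%, and 111 in wild type, or 7.15% against 14.4%. In each strain the convergent share was below that of all stretches, which are longer.

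Stretches called in both libraries of a strain and neither library of another were few. Both K215/216A and neither wild type library held 34, or 2.19% of convergent stretches against 3.59% of all stretches. Both K215/216R and neither wild type library held 17, or 1.09% against 1.16%. Both K215/216A and neither K215/216R library held 16, or 1.03% against 2.69%, and both K215/216R and neither K215/216A library held 20, or 1.29% against 0.93%. The wild type stretches without K215/216A numbered 13, or 0.837% against 0.797%, and those without K215/216R numbered 5, or 0.322% against 0.714%. Leaving out 1 library relaxes the rule to a single library and can only raise these counts. Each rose over 1.5-fold in at least 3 of 4 cases, up to 84 for K215/216A against wild type. By this rule, 1 call more or less decides whether a single stretch below is counted. Between the mutants, whatever wild type held, all stretches gave 162 with K215/216A and not K215/216R, and 56 with K215/216R and not K215/216A. The convergent ones gave 16 and 20.

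**Figure D5:**
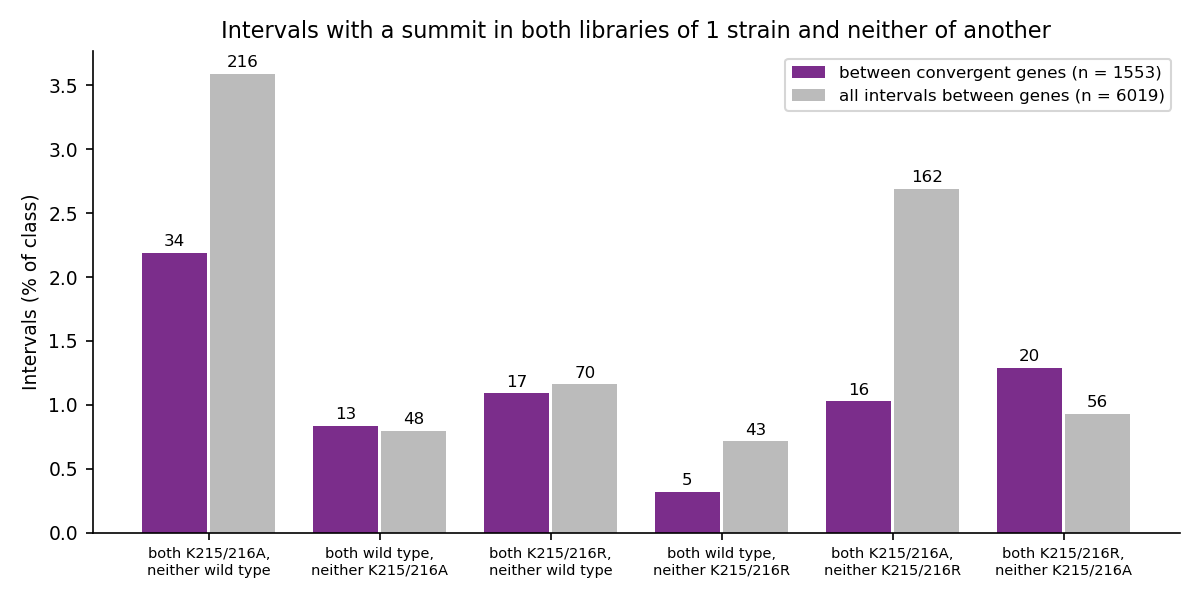
Percentage of stretches with a summit in both libraries of 1 strain and neither of another, for convergent stretches and for all stretches between genes, with the counts above the bars. The largest gap between the bars is that of K215/216A without K215/216R, 1.03% of convergent against 2.69% of all stretches.

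ECM33/RPG1 on chromosome II (394743 to 395382), between a cell wall protein gene and an initiation factor subunit, had a fold of 1.76 and 1.90 in K215/216A with its summit on base 395329 in both libraries. No peak of K215/216R or wild type overlapped it. HSP150/CIS3 on chromosome X (121691 to 122264), between a pair of related cell wall genes, had 1.44 and 1.64 in K215/216A and no overlapping peak in the other strains. The AAH1/YNL140C and RPL3/YNG1 stretches, the first beside the adenine deaminase gene and the second beside a ribosomal protein gene, also had no overlapping peak in K215/216R or wild type, with 1.40 and 1.57 and with 1.61 and 1.40 in K215/216A. RPS3/MRPL22, next to genes of cytoplasmic and mitochondrial ribosomal proteins, had 1.59 and 1.56 in K215/216A, 1.57 in K215/216R replicate 2 and no summit in wild type. AEP3/LSP1 had 1.495 and 1.63 in K215/216A and 1.57 in K215/216R replicate 2.

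In K215/216R but not wild type, the best-ranked stretches were MSB2/EAT1, YOR019W/HSP10, BUD27/FRS2 and LRG1/ADY3. At BUD27/FRS2, peaks of wild type replicate 2 and of K215/216A replicate 2 with summits elsewhere overlapped the stretch. MSB2 encodes an osmosensor at the plasma membrane, and its stretch on chromosome VII (520864 to 521089) had 1.33 and 1.43 in K215/216A, 1.59 and 1.65 in K215/216R and no peak in wild type. YOR019W/HSP10, beside a mitochondrial chaperonin gene, had 1.61 and 1.54 in K215/216R and 1.49 in K215/216A replicate 2. In K215/216R but not K215/216A, the best-ranked were DID4/MET14, RDS3/SYT1, ARO80/SIP1 and RCL1/MDM12, each of which also had a summit in 1 wild type library. The fold at DID4/MET14, between a vesicle-sorting gene and a methionine pathway gene, was 2.06 and 1.52 in K215/216R and 2.68 in wild type replicate 1, and K215/216A peaks with other summits overlapped it.

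In wild type but neither K215/216A library the best-ranked were CLB4/ATG38, MRX14/MRPL1, RRN7/APS3 and MSL5/CLF1. CLB4/ATG38 on chromosome XII (563391 to 563791), beside a B-type cyclin gene, had 2.32 and 1.85 in wild type, and no peak of either mutant overlapped it. MRX14/MRPL1 on chromosome IV (682493 to 682723), between a pair of mitochondrial ribosome genes, had 2.06 and 1.95 in wild type, and K215/216A peaks with summits elsewhere overlapped it. RRN7/APS3 and MSL5/CLF1 had wild type folds of 1.80 and 1.51, and of 1.90 and 1.48. Neither was limited to wild type. RRN7/APS3 also had a summit in both K215/216R libraries, with 1.42 and 1.49, and MSL5/CLF1 in K215/216R replicate 1, with 1.498. A peak of K215/216A replicate 2 with its summit elsewhere overlapped MSL5/CLF1. RRP45/PHM6 and RDL2/RRP36, the other best-ranked stretches without a K215/216R summit, had 1.70 and 1.76 and 1.93 and 1.52 in wild type. Both also had a summit in K215/216A replicate 2, with 1.31 at RRP45/PHM6 and 1.496 at RDL2/RRP36.

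Stretches called in all 4 mutant and neither wild type library numbered 4, or 0.258% against 0.565% of all stretches, and those called in both wild type and no mutant library numbered 3, or 0.193% against 0.266%. These 7 were named because they are few, after their values were seen. The 4 were TGA1/BUD14, DPC13/HEM2, MSB2/EAT1 and LST8/MRP7, and no wild type peak overlapped any of them. The 3 were CLB4/ATG38, MRX14/MRPL1 and AIM29/YKR075C.

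Convergent stretches flanked by genes of a functional list were counted by strain. A ribosomal protein gene flanked 68 convergent stretches, with a median length of 298 bases, and a summit in both libraries was present in 14 of them in K215/216A (20.6%), 7 in K215/216R (10.3%) and 4 in wild type (5.88%), against 10.8%, 10.5% and 7.15% of all convergent stretches in the same order. The 3 with a summit in all 6 libraries were RPL13A/RPP1A on chromosome IV (309389 to 309801), MGM101/RPS4A on X (701692 to 702026) and RPL25/MDH2 on XV (81191 to 81786). MGM101/RPS4A had a fold of 1.45 and 1.65 in K215/216A, 2.09 and 2.85 in K215/216R, and 2.24 and 2.15 in wild type, while RPL25/MDH2 and RPL13A/RPP1A had folds between 1.23 and 1.87.

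Genes of the respiratory chain and citric acid cycle flanked 26 stretches, with a median length of 385 bases, above the 213 bases of all convergent stretches. A summit in both libraries was present in 4 in K215/216A (15.4%), 4 in K215/216R (15.4%) and 3 in wild type (11.5%), against 10.8%, 10.5% and 7.15% of all convergent stretches in the same order, to which the other lists are also set. The recurrent ones include CYC1/UTR1, TIM13/QCR9 and DOM34/CIT1, given above. Kinetochore and checkpoint genes flanked 26, with 3 in K215/216A (11.5%), 4 in K215/216R (15.4%) and 3 in wild type (11.5%), among them DAD3/ARC40 and BIR1/GRR1, next to a subunit of the DASH complex and to a passenger complex gene. Cohesin and loader genes flanked 5, with 1 in each strain (20%). That one was MCD1/NHP10 on chromosome IV (446384 to 446966), beside the kleisin gene of cohesin, with a fold of 1.74 and 1.41 in K215/216A, 1.97 and 1.62 in K215/216R, and 1.76 and 1.92 in wild type. MCD1/NHP10 lies under 5 kb from the middle of the centromere stretch RMD1/NTH1. At that distance 9 to 13 of the 29 convergent stretches held a summit in a library. Glycolysis and fermentation genes flanked 11, with 2 in K215/216A (18.2%), 2 in K215/216R (18.2%) and 0 in wild type. Histone genes flanked 6, with 1 in K215/216A (16.7%), 1 in K215/216R (16.7%) and 0 in wild type. The galactose genes, which are strongly transcribed in the medium used, flanked 3 convergent stretches, and none held a summit in both libraries of a strain.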

How the data were processed

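Cse4 ChIP libraries, 2 for each of 3 strains, were analysed as the authors' peak lists, called on each library separately. Input DNA was not analysed. Per the submitters' processing notes, Bowtie 1.0.0, MACS2 2.1.1.20160226 and bedtools 2.25.0 were used with the sacCer3 build. The control of the peak calls is not given in the sources used here. Each deposited row holds the fold as a ratio of pileup to local background, the −log10 p and −log10 q at the summit, a deposited score made from the −log10 q, and the summit offset.

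The pileup and local background were recovered from the authors' fold and −log10 p as a whole pileup within 0.01 on −log10 p. This held for 99.9% or more of peaks. The library-wide background was taken as a measure of depth.

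Summits were placed against RefSeq R64 genes, whose bounds are mostly coding bounds: 96.4% of protein-coding lengths are multiples of 3. Strand came from the systematic name. The 1 gene without one left 2 stretches out. Chromosome ends were taken as the last annotated gene or peak end. The value of a stretch in a library was that of its best summit. Strains were compared by two-sided exact permutation over libraries, and orientations by two-sided exact sign flips over the 6 libraries. The methods were tested on simulated data, with Python 3.11.15, pandas 2.3.3 and scipy 1.17.1. Stretches named are the 10 best by mean fold percentile among those with a summit in all 6 libraries, the 4 best per pair of strains, the convergent centromere stretches, and up to 3 recurrent stretches per gene list. Fold values were set side by side between strains without a test. The members and gene lists were chosen with earlier results of these data known. No sequence is printed.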

Additional observations from a re-analysis of the deposited data

Results flagged for a closer look

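The convergent over divergent summit density lay on opposite sides of equality in K215/216R and in the other strains when stretches of every length were counted. The log2 ratio was above 0 in both K215/216R libraries and below 0 in both K215/216A and both wild type libraries. K215/216A minus K215/216R was −0.34 and K215/216R minus wild type was 0.20, each with an exact permutation p of 0.333, the smallest that 2 libraries against 2 can give. Counting only stretches of at least 200 bases, all 6 libraries were below 0, so the strains no longer lay on opposite sides, and the differences were −0.31 and 0.25. The cause was not tested.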

How the results depend on the processing

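Leaving out 1 library gave ranges of −0.14 to 0.79 percentage points for the share of K215/216A minus wild type, of −3 to 89 stretches for K215/216R minus wild type and of −24 to 34 stretches for K215/216A minus K215/216R. K215/216A minus K215/216R also turned to −13.5 stretches at a −log10 q of at least 10, −7 with lists shortened to equal length and −5 with pileups scaled to the lowest library-wide background. In class comparisons the smallest exact permutation p that 5 libraries allow is 0.0625. Leave-one-out ranges there were −0.23 to −0.15 log2 for density over tandem, 0.88 to 0.96 over genes, −9.35 to −6.82, −8.64 to −6.02 and 6.73 to 8.10 percentile points against divergent, tandem and genes, and −32.1 to −24.0 and −39.6 to −31.5 bases of peak length against divergent and tandem. For density near over far from the centromere they were 0.62 to 0.71, 0.51 to 0.56 and 0.37 to 0.40 log2 over divergent, tandem and genes. At a −log10 q of at least 10, convergent minus divergent was −2.34 points and −53.8 bases, minus tandem −2.04 points and minus genes 6.59 points, and near over far was 0.37, 0.019 and 0.0053 log2 over divergent, tandem and genes. None of these passed. With equal list lengths, −6.49 points against divergent and 6.97 points against genes did not pass (exact permutation p = 0.0625 each), and −10.7 bases against genes now passed. With the best summit alone, 3.18 points against genes did not pass. At stretches of at least 200 bases, density over divergent was −0.25 and passed.

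Leaving out 1 library relaxes the rule for stretches called in one strain and not another, and can only raise their counts. The counts then ran from 38 to 84 for K215/216A without wild type and 26 to 71 for K215/216R without wild type. They ran from 24 to 52 for K215/216A without K215/216R and 28 to 52 for K215/216R without K215/216A. For wild type they ran from 16 to 53 without K215/216A and 13 to 43 without K215/216R. At a −log10 q of at least 10 they were 10, 7, 6, 10, 5 and 2 in the same order. Wild type without K215/216R was 8 at equal lengths and 8 when scaled, and wild type without K215/216A was 8 with no overlapping peak allowed. The cause was not tested.

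The shared replicate numbers are not said to mark a batch, and deviations of same-numbered libraries correlated at −0.014, 0.017 and 0.076 over 422 stretches. Both mutant replicate 2 libraries and both wild type libraries nevertheless shared most stretches, relative to those in either library, with a same-numbered library of another strain. The part of depth or of a batch in that was not tested. With 2 libraries a strain, a replicate block cannot change a difference of means. The share of K215/216A minus wild type therefore stayed at 0.33 points. Only the test changed, with 0.5 the smallest exact permutation p. In each strain replicate 1 had the shorter peak list and the lower library-wide background. Wild type replicate 1 had the lowest library-wide background, 59.5, and the shortest list, 3123 peaks, and its counts are given with that limit.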
